A study of Mus musculus with 42 samples.

Results

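Fatty acid synthesis from carbohydrate carbon, or de novo lipogenesis, was followed in mouse liver through 7 genes: 6 enzyme genes (Acly, Acss2, Acaca, Acacb, Me1 and Fasn) and Srebf1, which encodes a transcription factor of this pathway. A gene entered when the array had a probe set annotated to its symbol alone, and the brightest such probe set stood for the gene. By this rule 6 of the 7 genes were measured, out of 17989 genes in all, and Acly was not analysed here. The animals were male wild-type mice of the inbred strain C3HeB/FeJ on a high-fat diet (HFD) for 1 to 3 weeks or on a control diet, and their liver RNA was hybridised to Affymetrix whole-transcript arrays. There were 42 arrays: 8 after 7 days of HFD at 15 weeks of age, 8 after 14 days at 16 weeks, 8 after 21 days at 17 weeks, and 18 controls of 15 to 17 weeks. Mice of all groups were housed singly and were random-fed, and the controls had a diet that the labels call LFD for up to 21 days. Controls of different ages and days form 1 group, with no age or day given per array. Age and days on the diet rose together in the HFD groups, and the labels do not show whether they did in the controls. The labels number the arrays of a group without tying them to animals, and p-values therefore rest on the spread among arrays, part of which may be technical. The titles of the 21-day and control arrays carry the word reanalysis and those of the 7-day and 14-day arrays do not. Whatever that word marks cannot be told apart from the diet at 7 and 14 days, whereas both groups carry it at 21 days.

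In the liver, citrate leaves the mitochondria and is split into acetyl-CoA, and acetyl-CoA is also made from acetate. Acetyl-CoA carboxylase turns it into malonyl-CoA, and fatty acid synthase builds palmitate from both with reducing power from NADPH. The genes of these enzymes are classical targets of SREBP-1c, a product of Srebf1 that mediates the effect of insulin, and of ChREBP, which responds to glucose metabolites. In liver the pathway is known for rising with carbohydrate feeding and falling with fasting.

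All values are log2 values of the deposited table, and every difference is HFD minus control on that scale unless another pair is named. A difference was called when its adjusted p from limma, over all 17989 genes of a comparison, was under 0.05. The lowest value of any of the 6 genes on any array was 4.73, against a background level of 2.86, the 95th percentile of 929 olfactory receptor genes. Since probe sets differ in brightness, levels are compared between arrays and not between genes. In whole liver, fewer cells of a type and less RNA per cell cannot be told apart.

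The mean of 10 hepatocyte markers lay between 11.1 and 11.8 on all 42 arrays. Other signals were uneven. The mean of 14 pancreatic acinar markers had a median of 5.32 (3.49 to 9.29) at 7 days, 5.49 (3.47 to 8.98) at 14 days, 4.18 (3.36 to 6.35) at 21 days and 4.46 (3.35 to 8.21) in controls, with 0 of the 14 at or below background in any group mean. None of the 14 was called, with median differences of 0.77, 0.63 and -0.49 at 7, 14 and 21 days. Over the 42 group-centred arrays this mean had r of -0.39 to -0.12 with the 6 genes. Markers of adipocytes, which also express lipogenic genes, averaged 3.14 to 3.36 at 7 days, 3.18 to 3.40 at 14 days, 3.09 to 3.43 at 21 days and 3.11 to 3.53 in controls, and 3 of 8, 4 of 8, 4 of 8 and 3 of 8 of them had group means at or below background. Their mean had r of 0.15 to 0.38 with the 6 genes. Of 11 Kupffer cell and macrophage markers 3, 0 and 0 were called higher at 7, 14 and 21 days. Over all genes 1.16%, 0.506% and 0.445% were called higher. The nuclear RNA Malat1 stood higher on all HFD arrays numbered 5 to 8 than on all those numbered 1 to 4 at each time, and it had r of -0.59 with Srebf1 and of -0.38 to -0.15 with the 5 enzyme genes. The part of these signals in the results was not tested beyond the values given.

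At 7 days of HFD all 6 genes had a mean above that of controls, and 2 were called: Acaca, 1.97-fold higher, and Me1, 1.75-fold higher. Over all genes 1.16% were called higher and 0.239% lower. Fasn and Acacb had differences of like size (2.11-fold and 1.73-fold) with wider spread and were not called. Acss2 and Srebf1 differed by 0.12 and 0.13. At 14 days the differences of Acaca, Me1, Fasn and Acacb were 0.76, 0.51, 0.93 and 0.62, and at 21 days 0.48, 0.19, 0.80 and 0.32, and 0 of 6 genes were called at either time, beside 0.506% and 0.445% of all genes called higher and 0.161% and 0.256% lower. At an unadjusted limma p under 0.05 there were 4, 4 and 2 of the 6 genes at the 3 times, beside 9.28%, 6.0% and 6.66% of all genes. For none of the 6 did every HFD array lie above every control, which held for 0.228%, 0.0778% and 0.05% of all genes. The median difference of the 6 genes was 0.80 at 7 days, 0.57 at 14 days and 0.29 at 21 days, against medians of -0.01, -0.00 and 0.01 over all genes. These 3 comparisons share the 18 controls.

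**Figure D1:**
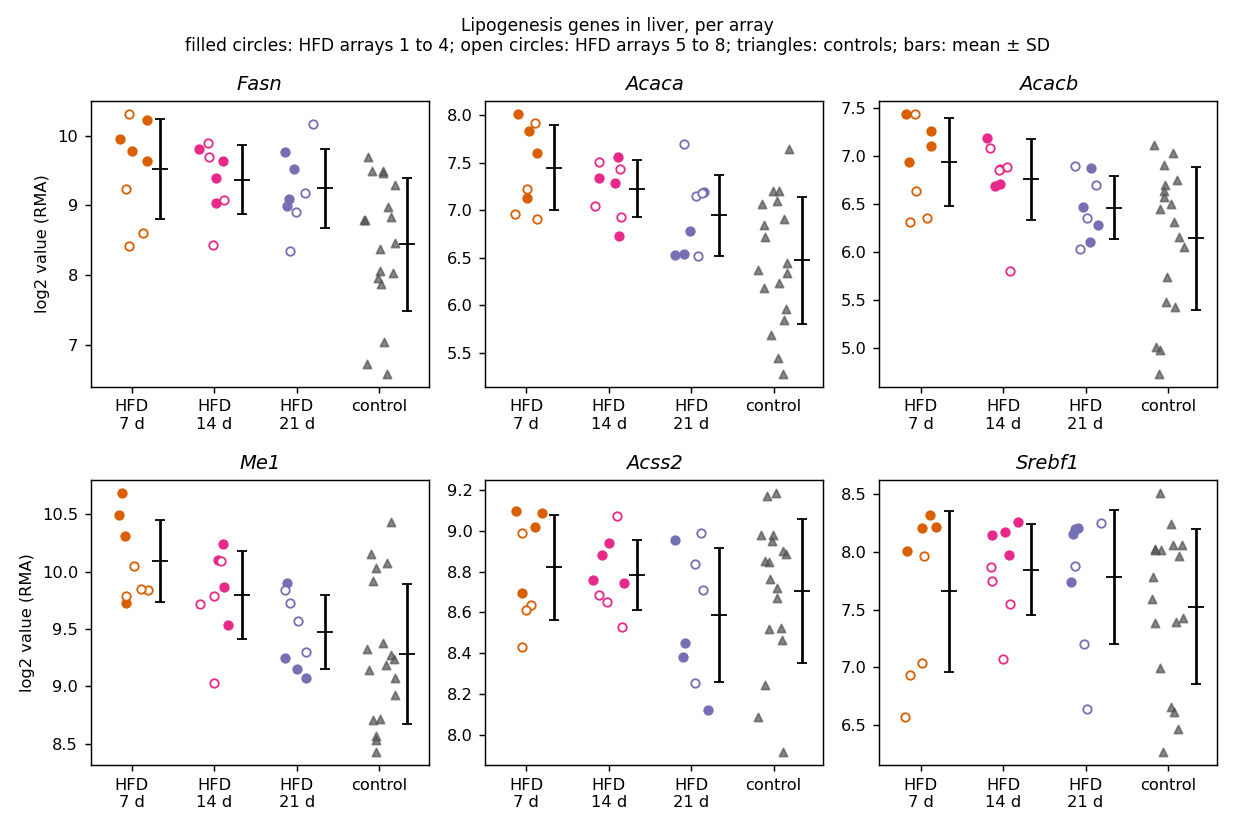
Log2 values (RMA) of the 6 measured genes on every array, with HFD groups at 7, 14 and 21 days left of the controls; filled circles are HFD arrays numbered 1 to 4, open circles those numbered 5 to 8, triangles controls, and bars the mean ± SD of each group. Control arrays reach far below the HFD arrays for Fasn, Acaca and Acacb, the upper ends of the groups overlap, and open circles hold the lowest Srebf1 values of each HFD group.

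Windows at annotated starts are shown for the called genes Acaca and Me1 and for Fasn. Fasn was added after its values were seen, as the enzyme with the largest difference at each time. RefSeq (GRCm38.p6) gave 9 annotated starts for the 6 genes, and each window holds 250 bases before the start and 50 after it. Capitals mark matches, on either strand, to the 8 motifs searched: the E-box CACGTG, the sterol regulatory element core TCACNCCAC, the NF-Y box CCAAT, the Sp1 GC box GGGCGG, the antioxidant response element core TGACNNNGC, 2 copies of AGGTCA with 1 base between (PPAR) or 4 bases between (LXR), and 2 copies of CACGTG with 5 bases between (the carbohydrate response element, which contains the E-box). A stretch in capitals on the other strand reads as the reverse complement. Lines read 5′ to 3′ along the gene's strand.
Fasn (chr11:120824498-120824797, minus strand): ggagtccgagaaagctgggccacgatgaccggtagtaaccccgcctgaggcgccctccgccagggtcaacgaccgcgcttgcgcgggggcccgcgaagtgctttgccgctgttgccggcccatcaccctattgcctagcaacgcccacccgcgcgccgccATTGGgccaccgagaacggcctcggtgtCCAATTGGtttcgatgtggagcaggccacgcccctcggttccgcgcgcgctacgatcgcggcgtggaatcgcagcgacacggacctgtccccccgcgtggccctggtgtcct
Acaca (chr11:84195188-84195487, plus strand): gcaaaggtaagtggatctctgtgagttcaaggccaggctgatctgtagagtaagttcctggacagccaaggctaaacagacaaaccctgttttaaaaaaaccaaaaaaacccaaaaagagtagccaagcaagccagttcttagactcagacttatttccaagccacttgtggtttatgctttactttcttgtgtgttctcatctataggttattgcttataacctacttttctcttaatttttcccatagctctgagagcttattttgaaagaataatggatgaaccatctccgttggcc
Me1, the upstream of 2 starts (chr9:86695865-86696164, minus strand): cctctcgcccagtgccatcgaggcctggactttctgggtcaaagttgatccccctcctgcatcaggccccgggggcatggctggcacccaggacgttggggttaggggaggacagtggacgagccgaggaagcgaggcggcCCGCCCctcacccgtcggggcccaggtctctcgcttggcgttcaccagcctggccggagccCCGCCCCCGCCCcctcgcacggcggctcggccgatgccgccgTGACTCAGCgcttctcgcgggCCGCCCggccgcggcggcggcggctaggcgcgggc
Offsets count the start base as 0. The Fasn window held 3 NF-Y boxes, at -90, -62 and -59, the last pair overlapping by 2 bases, and its GC content was 69.3%. The Me1 window held 4 Sp1 boxes, at -109, -48, -42 and 15, of which the middle pair abut, and 1 antioxidant response core at -6, with a GC content of 74.7%. Its other annotated start, not shown, had 1 NF-Y box. The Acaca window, with a GC content of 39.7%, held none of the 8 motifs, which says only that these letters are not in this window. Just before its start base it reads tttttcccatag, letters like those at the end of an intron. Whether this window covers a promoter of Acaca was not tested. NF-Y boxes were in 37.4% and Sp1 boxes in 35.7% of all 32851 promoter windows, and the antioxidant core in 12.4%, so such matches are common. None of the 9 windows held an exact E-box (7.15% of all windows) or sterol element core (1.24%), nor the PPAR (0.0396%), LXR (0.0152%) or carbohydrate response element (0 of all windows). The PPAR, LXR and carbohydrate elements were searched only as exact repeats. These were so rare over all windows that their absence here says nothing about the 6 genes.

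Acss2 encodes the cytosolic and nuclear acetyl-CoA synthetase, which makes acetyl-CoA from acetate. Its lowest, median and highest values were 8.43, 8.84 and 9.10 at 7 days, 8.53, 8.75 and 9.07 at 14 days, 8.12, 8.58 and 8.99 at 21 days, and 7.92, 8.80 and 9.19 in controls. Every HFD array lay within the control range, and at each time 4 or 5 of 8 arrays were above the control mean. The differences were 0.12 at 7 days, 0.08 at 14 days and -0.12 at 21 days (SE 0.13 each). The limma adjusted p-values were 0.815, 0.988 and 0.980. The 95% limits at 7 days were -0.13 and 0.37, so a difference above 1.29-fold lay outside them.

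Acaca encodes acetyl-CoA carboxylase 1, the cytosolic form whose malonyl-CoA feeds fatty acid synthesis. It had lowest, median and highest values of 6.91, 7.42 and 8.02 at 7 days, 6.73, 7.31 and 7.56 at 14 days, 6.52, 6.97 and 7.70 at 21 days, and 5.28, 6.41 and 7.65 in controls. All 8 arrays of each HFD group lay above the control mean, and 3 at 7 days, 0 at 14 days and 1 at 21 days lay above every control. So the groups overlapped at their upper ends, and the lowest control arrays lay far under the lowest HFD array. Acaca was 1.97-fold higher at 7 days (log2 0.98, SE 0.21, 95% limits 0.55 and 1.41, limma adjusted p = 0.00485). At 14 days the difference was 0.76 (adjusted p = 0.109) and at 21 days 0.48 (adjusted p = 0.644). Without control array 4, the highest control for Acaca, the 14-day difference was 0.83 and was called (limma adjusted p = 0.0335). With that array kept, it was also called with array weights (0.0432) and with the acinar mean as a covariate (0.0270). A dimmer probe set of Acaca gave 0.88, 0.57 and 0.36 at the 3 times, and in a fit over all single-symbol probe sets it was called at 7 days (adjusted p = 0.000955). The 7-day call was kept with any 1 of the 42 arrays left out. It was lost with HFD arrays 5 to 8 alone (log2 0.78, adjusted p = 0.378) and without the 12 arrays of an acinar mean above 6 (log2 1.06, adjusted p = 0.0906), where fewer arrays were tested.

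Acacb encodes acetyl-CoA carboxylase 2, which sits at the mitochondrial outer membrane, where its malonyl-CoA holds back the entry of fatty acids for oxidation. Its values were 6.32, 7.02 and 7.44 (lowest, median, highest) at 7 days, 5.80, 6.86 and 7.19 at 14 days, 6.03, 6.41 and 6.90 at 21 days, and 4.73, 6.39 and 7.12 in controls. At 7 days all 8 arrays lay above the control mean and 3 above every control. At 14 days 7 of 8 and at 21 days 6 of 8 lay above the mean, and array 8 at 14 days, at 5.80, stood apart below its group. The differences were 0.79 (SE 0.23, adjusted p = 0.0811), 0.62 (0.504) and 0.32 (0.918), so none passed. Leaving out control array 4 or 11 brought the 7-day adjusted p to 0.0426 or 0.0477. It was 0.0173 with array weights, 0.0312 with the acinar mean as a covariate and 0.0456 with Malat1 as a covariate. Every other setting left it above 0.05. It was 0.148 with quantile normalization, 0.0531 under the replicate block and 0.696 with HFD arrays 5 to 8 alone. Other single arrays left out gave up to 0.222.

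Me1 encodes cytosolic malic enzyme, which turns malate into pyruvate and yields NADPH. It had lowest, median and highest values of 9.73, 9.95 and 10.7 at 7 days, 9.03, 9.83 and 10.2 at 14 days, 9.08, 9.44 and 9.90 at 21 days, and 8.43, 9.21 and 10.4 in controls. All 8 arrays at 7 days, 7 at 14 days and 5 at 21 days lay above the control mean, while only 2, 0 and 0 lay above every control. Me1 was 1.75-fold higher at 7 days (log2 0.81, SE 0.20, 95% limits 0.42 and 1.21, limma adjusted p = 0.0160). The difference was 0.51 at 14 days (adjusted p = 0.523) and 0.19 at 21 days (adjusted p = 0.975). The 7-day call rested on single arrays more than that of Acaca: the adjusted p was 0.0588 without 7-day array 1 and 0.0730 without 7-day array 2. It was also lost against controls 1 to 9 alone (0.0847), with HFD arrays 1 to 4 (0.0505) or 5 to 8 alone (0.493), without the 12 arrays of high acinar mean (0.303) and under the replicate block (0.0553), at differences of 0.60 to 1.02.

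Fasn encodes fatty acid synthase, the multifunctional enzyme that builds palmitate. Its lowest, median and highest values were 8.42, 9.71 and 10.3 at 7 days, 8.43, 9.52 and 9.89 at 14 days, 8.34, 9.13 and 10.2 at 21 days, and 6.59, 8.62 and 9.69 in controls. Of 8 arrays 7 lay above the control mean at each time, and 4, 3 and 2 lay above every control. The control SD of 0.95 was the widest of the 6 genes, against 0.71, 0.50 and 0.56 in the HFD groups. Fasn differed by 1.08 at 7 days (SE 0.31, 95% limits 0.46 and 1.70, limma adjusted p = 0.0686), by 0.93 at 14 days (0.337) and by 0.80 at 21 days (0.490). At 7 days the adjusted p came under 0.05 without any of control arrays 4, 5, 9 or 11 or of 7-day arrays 7 or 8, with values of 0.0317 to 0.0450. With the acinar mean as a covariate it was 0.0233, with Malat1 as a covariate 0.0456, with array weights 0.00624 and over genes above background only 0.0462. Every other setting left it above 0.05. It was 0.113 with quantile normalization, 0.134 under the replicate block and 0.707 with HFD arrays 5 to 8 alone. Other single arrays left out gave up to 0.195.

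Srebf1 encodes SREBP-1a and SREBP-1c, the main form in liver, and had 1 probe set here for the gene as a whole. Its values were 6.57, 7.99 and 8.32 (lowest, median, highest) at 7 days, 7.07, 7.92 and 8.26 at 14 days, 6.64, 8.01 and 8.25 at 21 days, and 6.27, 7.69 and 8.51 in controls. Every HFD array lay within the control range. The differences were 0.13 (SE 0.25, adjusted p = 0.904), 0.32 (0.964) and 0.26 (0.965). At 7 and 21 days their sign depended on the arrays used. With HFD arrays 1 to 4 alone they were 0.66, 0.61 and 0.55, and with arrays 5 to 8 alone -0.40, 0.03 and -0.03. Against controls 10 to 18 alone the 7-day difference was -0.09. None of these was called. The 95% limits, -0.37 and 0.63 at 7 days and -0.18 and 0.82 at 14 days, leave room for a 1.55-fold and a 1.76-fold rise.

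Srebf1 alone of the 6 genes was split by the array numbers without overlap, at 7 and 14 days. At 7 days arrays 5 to 8 averaged 7.13 ± 0.59 and arrays 1 to 4 averaged 8.19 ± 0.13 (SD, n = 4 each), and every array of the higher numbers lay below every one of the lower numbers. At 14 days the averages were 7.56 ± 0.35 and 8.14 ± 0.12, again with no overlap, and at 21 days 7.49 ± 0.71 and 8.07 ± 0.22, with overlap. Over all genes 5.25% at 7 days, 4.67% at 14 days and 9.39% at 21 days were split in this direction. Malat1 ran the other way, at 9.05, 8.96 and 9.39 on arrays 5 to 8 and 6.79, 6.19 and 6.97 on arrays 1 to 4. None of the 5 enzyme genes was split without overlap at any time. Their 7-day means on arrays 5 to 8 minus arrays 1 to 4 were -0.76 for Fasn, -0.50 for Acacb, -0.42 for Me1, -0.39 for Acaca and -0.31 for Acss2. At 21 days these differences were -0.19, 0.06, 0.27, 0.38 and 0.22. What the numbers stand for is not given in the labels, and why the Srebf1 values followed them was not tested. With Malat1 as a covariate the differences of Srebf1 from controls were 0.10, 0.20 and 0.30 at the 3 times, and none was called.

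**Figure D2:**
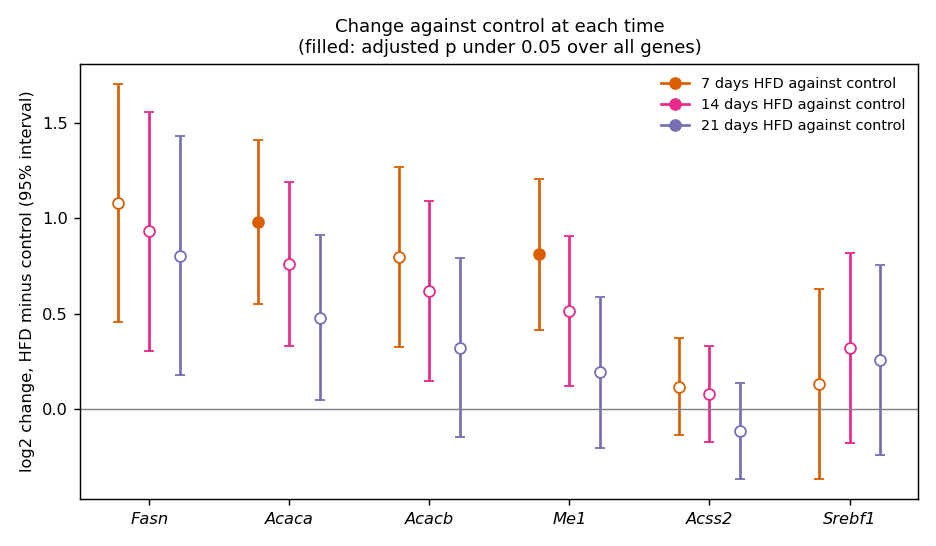
Log2 difference of each gene between each HFD time and controls, with 95% limits; filled points have a limma adjusted p under 0.05 over all genes. Acaca and Me1 at 7 days are the filled points, Fasn and Acacb lie beside them at 1.08 and 0.79, and Acss2 and Srebf1 have limits across 0 at all 3 times.

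Whether the enzymes moved apart from Srebf1 was asked on the difference between each enzyme and Srebf1 on the same array, by an exact two-sided permutation test over the 1562275 splits of 8 HFD arrays and 18 controls. These 15 tests were chosen after the changes of the genes were known, so they describe the differences and are no independent evidence of them. At 7 days Fasn exceeded Srebf1 by 0.95 more than in controls (exact p = 0.000314, adjusted over the 15 tests 0.00305, 8 of 8 arrays above the control mean). The excess was 0.85 for Acaca (exact p = 0.000609, adjusted 0.00305, 7 of 8 arrays), 0.66 for Acacb (exact p = 0.000497, adjusted 0.00305, 8 of 8) and 0.68 for Me1 (exact p = 0.00682, adjusted 0.0256, 7 of 8). For Acss2 it was -0.01 (exact p = 0.95), with a standard error of 0.21, an average of -0.39 on arrays 1 to 4 and 0.36 on arrays 5 to 8. At 14 and 21 days Fasn alone passed, at 0.61 (adjusted permutation p = 0.0468, 6 of 8 arrays) and 0.55 (0.0492, 7 of 8), while Acaca had 0.44 (0.0967) and 0.22 (0.457). Both Fasn values lie just under the threshold, and they were 0.42 and 0.35 on arrays 1 to 4 and 0.80 and 0.74 on arrays 5 to 8. Part of the size moved with the array numbers: the 7-day excess of Fasn was 0.80 on arrays 1 to 4 and 1.1 on arrays 5 to 8, that of Acaca 0.51 and 1.18, that of Acacb 0.38 and 0.94, and that of Me1 0.36 and 1.0. At 21 days the sign depended on the arrays used for all enzymes but Fasn: on arrays 1 to 4 and on arrays 5 to 8 the excess was -0.26 and 0.70 for Acaca, -0.26 and 0.39 for Acacb, -0.49 and 0.36 for Me1, and -0.77 and 0.03 for Acss2.

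Among the HFD times the means of Acaca, Acacb, Me1 and Fasn were highest at 7 days and lowest at 21 days. None of these steps passed. The limma F test over the 3 HFD groups gave an adjusted p of 0.9996 for each of the 6 genes, beside 0.00556% of all genes called. At an unadjusted p under 0.05 there was 1 of the 6, beside 4.4% of all genes. Me1 was the closest, with 9.48 ± 0.32 at 21 days and 10.1 ± 0.36 at 7 days (SD, n = 8 each). That difference was -0.62 (SE 0.23, 95% limits -1.08 and -0.15, unadjusted limma p = 0.0102, adjusted 0.613). Acaca differed by -0.50 between 21 and 7 days, with limits of -1.01 and 0.01. A call at 7 days and none later therefore does not show that Acaca or Me1 differed between the times. The 21-day arrays carry the word reanalysis and the 7-day arrays do not, so time and whatever that word marks cannot be told apart here.

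The 6 genes varied together from array to array within groups. The same control arrays were low for all of them: controls 2, 3 and 8 were among the lowest 4 of the 18 for each of the 6 genes, and control 17 for 5 of them. Control 2, for example, had 6.59 for Fasn, 4.73 for Acacb and 6.47 for Srebf1, against control medians of 8.62, 6.39 and 7.69. Controls 9 and 11 were among the highest 4 for 5 genes each. In the HFD groups array 2 was among the highest pair for all 6 genes at 7 days and again at 14 days, as array 1 was at 21 days, and array 8 was among the lowest pair for all 6 at 14 days. On group-centred values all 15 pairs correlated over the 42 arrays. Pearson's r ran from 0.73 to 0.90 for the 10 enzyme pairs (Spearman's rho 0.71 to 0.91, adjusted permutation p = 1.25e-05 for each r, based on the smallest p that 100000 permutations can give). With Srebf1 the 5 enzymes had r of 0.55 to 0.79 (rho 0.50 to 0.69, adjusted permutation p of r up to 0.00044). Without the 2 arrays farthest from the median, r ran from 0.73 to 0.88 and from 0.55 to 0.73.

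**Figure D3:**
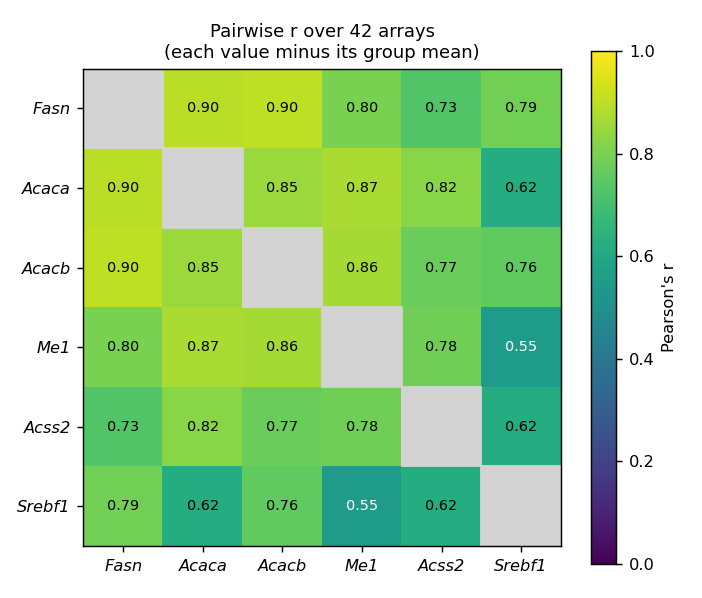
Pearson's r of each pair of genes over 42 arrays, each value minus its group mean. Fasn with Acaca and with Acacb stands highest at 0.90. The lowest values are those of Srebf1 with Me1 (0.55), Acaca (0.62) and Acss2 (0.62). Srebf1 with Fasn (0.79) and with Acacb (0.76) lies within the range of the enzyme pairs.

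The enzyme pairs kept their r in each subset of arrays, whereas the pairs with Srebf1 fell on the HFD arrays numbered 1 to 4 and not in the other subsets. Within the 26 arrays whose titles say reanalysis the enzyme pairs had r of 0.72 to 0.91, and within the 16 others 0.71 to 0.90. The pairs with Srebf1 had 0.60 to 0.81 and 0.45 to 0.74. Within the 18 controls the ranges were 0.78 to 0.93 for enzyme pairs and 0.68 to 0.86 with Srebf1. On the 12 HFD arrays numbered 1 to 4 the enzyme pairs still had 0.66 to 0.97, whereas Srebf1 correlated at -0.09 with Acaca and -0.05 with Me1 and at most at 0.38, with Acss2. On the 12 arrays numbered 5 to 8 Srebf1 had r of 0.47 to 0.90 with the enzymes. Srebf1 spread little on arrays 1 to 4, with SDs of 0.13, 0.12 and 0.22 at the 3 times.

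**Figure D4:**
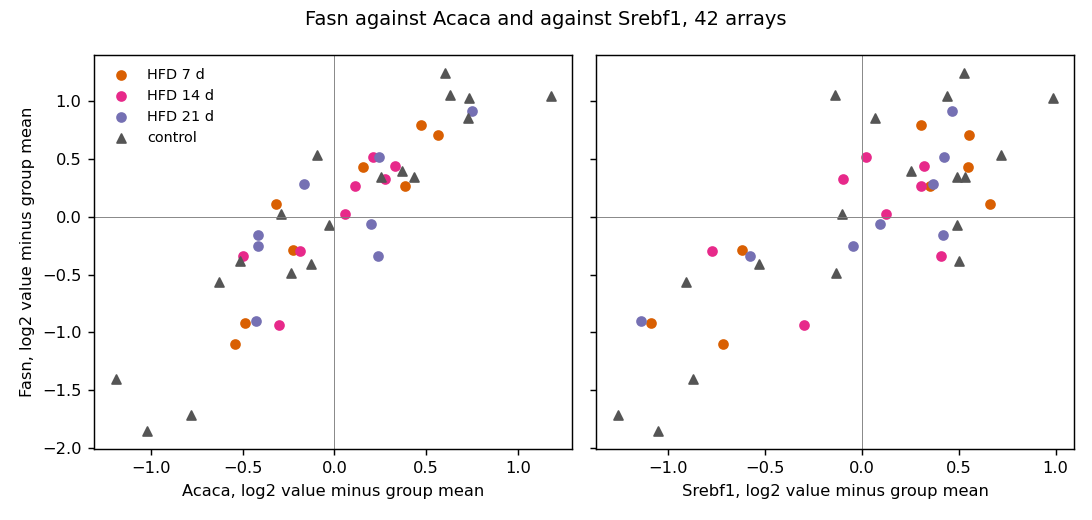
Group-centred log2 values of Fasn (vertical) against Acaca (left) and Srebf1 (right) on 42 arrays; colours mark the 3 HFD times and triangles the controls. Fasn and Acaca lie along a line (r = 0.90), while arrays of like Srebf1 right of the middle span a wide range of Fasn (r = 0.79).

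Several genes outside the set followed it closely from array to array. By rank of r with Fasn among the 17988 other genes, Acacb was at 3, Acaca at 5, Me1 at 35, Srebf1 at 53 and Acss2 at 197. The 6 genes most like the mean of the 6 were Gpam (r = 0.94), which encodes the mitochondrial glycerol-3-phosphate acyltransferase of triglyceride synthesis, Fads2 (0.93), the delta-6 desaturase, Pklr (0.93), liver pyruvate kinase, Pgd (0.92), an NADPH-yielding enzyme of the pentose phosphate pathway, Cyb5r3 (0.91), a cytochrome b5 reductase, and Tkfc (0.90), triokinase of fructose metabolism. Most like Srebf1 were Reep6 (0.93), Sec31a (0.92), a coat protein of vesicles leaving the endoplasmic reticulum, and Bag6 (0.92). All r are over 42 arrays, and on each array all genes are read from the same RNA extract. Each r therefore also carries whatever differed between extracts. Over all genes 9.75% had r above 0.5 with the mean of the 6.

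**Figure D5:**
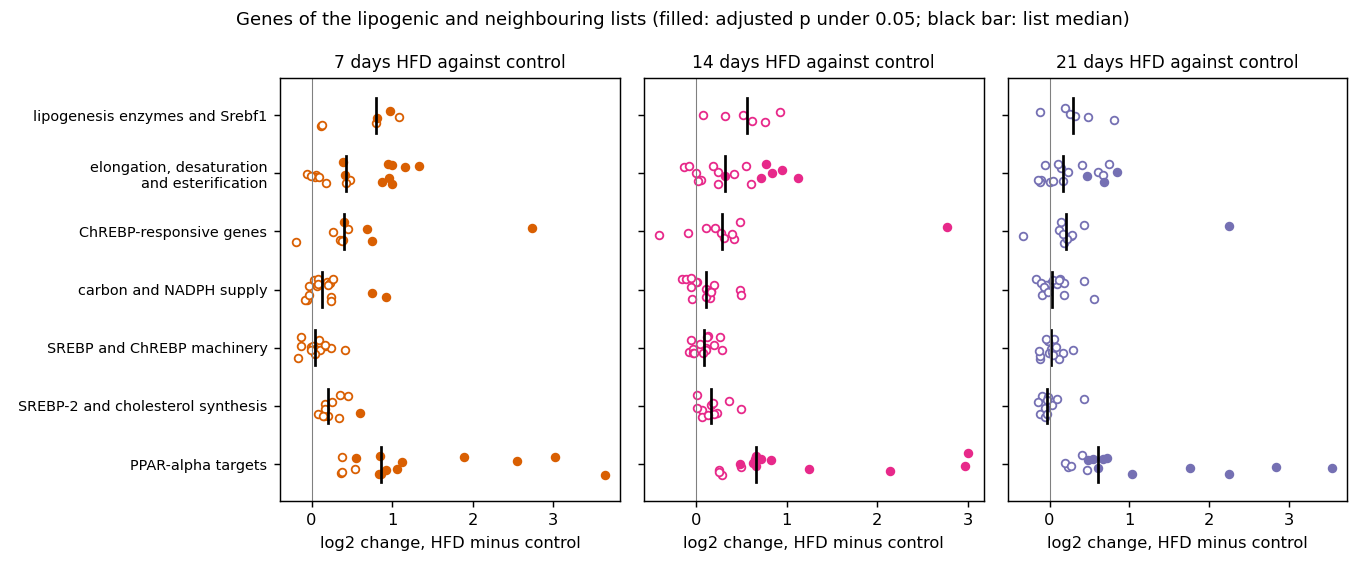
Log2 difference from controls at 7, 14 and 21 days for the measured genes of 7 lists; filled points were called and the black bar is the median of the genes drawn. Pcx, a measured gene of the carbon and NADPH supply list, is not drawn and does not enter the bar of that list. The 6 lipogenesis genes lie at medians of 0.80, 0.57 and 0.29, the machinery genes near 0, and Rgs16 and the PPAR-alpha targets reach the highest values.

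Genes of the machinery that controls SREBP and ChREBP had 0 calls, beside 1.4%, 0.667% and 0.7% of all genes at 7, 14 and 21 days. Of 14 measured genes, among them the SREBP escort Scap, the retention factors Insig1 and Insig2, the protease gene Mbtps1, Mlxipl (ChREBP) and the LXR-alpha gene Nr1h3, 0 were called at 7, 14 or 21 days by limma, against 2, 1 and 1 at unadjusted p-values under 0.05. Their medians were 0.05, 0.09 and 0.02, within a range of -0.17 to 0.41. The 9 genes for regulation of acetyl-CoA carboxylase and use of malonyl-CoA, which include Acacb itself, likewise had 0 called, with 3, 1 and 1 at an unadjusted p under 0.05. Their medians were 0.20, 0.11 and 0.02. Over all genes 9.28%, 6.0% and 6.66% had an unadjusted limma p under 0.05. With so few genes called in all, 0 called of 14 or of 9 does not set either list apart.

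Over all genes 1.16%, 0.506% and 0.445% were called higher at 7, 14 and 21 days. Of 17 measured genes for carbon and NADPH supply 2 were called higher at 7 days, 0 at 14 days and 0 at 21 days, with 0 lower. These were Acss3, a mitochondrial acyl-CoA synthetase (log2 0.92, limma adjusted p = 4.96e-05), and Pklr (0.74, adjusted p = 0.0156). Pgd, which tracked the 6 genes closely within groups, differed by 0.24, 0.13 and 0.09 from controls and was not called. The medians of the list were 0.19, 0.11 and 0.05. Genes of ChREBP response had 4, 1 and 1 of 10 called higher and 0 lower: Rgs16, a regulator of G-protein signalling (log2 2.74, 2.77 and 2.24), and at 7 days Pklr, Tkfc (0.69) and the fructokinase gene Khk (0.40).

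Enzymes that modify or esterify fatty acids included genes called at every time. Of 17 genes for elongation, desaturation and esterification 9, 6 and 3 were called higher at 7, 14 and 21 days, and 0 lower. Over all genes 1.16%, 0.506% and 0.445% were called higher. Fads2 had 1.33, 1.13 and 0.85 at the 3 times (SE 0.18, adjusted p = 1.79e-06, 8.34e-05 and 0.00599). Gpam had 1.16, 0.95 and 0.67, of which the first pair was called, and Fads1, the delta-5 desaturase, 0.99, 0.84 and 0.61, likewise. Pnpla3, which encodes a lipid droplet protein, had 1.0, 0.55 and 0.74, called at 7 days. The elongase gene Elovl5 had 0.96, 0.78 and 0.68 and Elovl2 had 0.95, 0.72 and 0.47, and both were called at all 3 times. Scd1, which had r of 0.89 with the mean of the 6 genes, was not called at any time. The medians of the list were 0.43, 0.32 and 0.17, below those of the 6 genes.

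In neighbouring pathways, 1, 0 and 0 of 11 genes of SREBP-2 and cholesterol synthesis were called higher, the 1 being Mvd, mevalonate diphosphate decarboxylase (log2 0.60 at 7 days). Targets of PPAR-alpha, the nuclear receptor of fatty acid oxidation, had 11, 11 and 10 of 15 called higher, with medians of 0.86, 0.66 and 0.61. At 7 days Cyp4a14 and Cyp4a10, which encode fatty acid omega-hydroxylases, differed by 3.64 and 2.56, the pantetheinase gene Vnn1 by 3.02 and the fatty acid carrier gene Cd36 by 1.89. Of the 10 NRF2 targets 0 were called at any time (0, 0 and 1 at an unadjusted p under 0.05), and of 10 feeding and fasting genes 1 at each, Fgf21. Of 14 circadian clock genes, measured because lipogenic genes cycle over the day, 0 were called (3 at an unadjusted p under 0.05 each time). Over all genes 1.4%, 0.667% and 0.7% were called in either direction, and 9.28%, 6.0% and 6.66% had an unadjusted limma p under 0.05. So 0 called does not set the NRF2 or clock genes apart. In none of these lists was a gene called lower.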

How the data were processed

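The log2 values were deposited by the authors as 1 table of 42 arrays, made by RMA in Affymetrix Expression Console 1.1 per the submitters' processing notes. RMA corrects background, normalizes and summarises probes, and can shrink the differences of dim probe sets. The array's genome build was not given in the sources used here. Of 32624 probe sets 19559 were annotated to 1 symbol, 1469 to several and 11596 to none. The brightest single-symbol probe set stood for each of 17989 genes, of which 841 had several. One limma fit (3.58.1, R 4.3.3) with 4 groups tested all genes, with Benjamini-Hochberg adjustment per comparison and calls at 0.05. The number of arrays limits the precision. On simulated data for 7 days against control over 17989 genes, with 200 changed, 76.5% were recovered at a log2 change of 0.5 and 99% at 1. The median SE of a difference from control was 0.09, against 0.13 to 0.31 for the 6 genes. These rates therefore do not carry over to the 6 genes. Correlations used 100000 permutations (Python 3.11.15, numpy 2.4.6, pandas 2.3.3). Named list genes are up to 4 called per list and comparison with the largest change, plus the 6 genes most like the mean of the set and 3 most like Srebf1. The members and lists were chosen with earlier results of these data known. Alternatives covered scaling, dim genes, probe sets, array weights, covariates, subsets of arrays and each array left out.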

Additional observations from a re-analysis of the deposited data

Results flagged for a closer look

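One value stood far from the rest of its group. Acacb had a log2 value of 5.80382 on array 8 after 14 days of HFD, and its gap to the next array was 0.634 of the range of the 8 arrays, above the critical value of 0.526. In all 36 gap tests were made over 18 groups of 8 arrays and 1 passed, where chance passes about 1 group in 20. The same array was among the lowest pair of its group for 6 of the 6 genes. Without it the 14-day difference of Acacb from controls was 0.75 (SE 0.24, limma adjusted p = 0.253), against 0.62 with it.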

How the results depend on the processing

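At 7 days of HFD against control 2 of the 6 genes were called among 251 genes in all. Array weights gave 4 of the 6 and 605 genes, and the acinar mean or Malat1 as a covariate gave 4 each. Genes above background only gave 3, with Fasn added. The replicate block gave 1, HFD arrays 1 to 4 alone 1, controls 1 to 9 alone 1, HFD arrays 5 to 8 alone 0 (144 genes), and the arrays left after removing those of an acinar mean above 6 gave 0 (101 genes), a setting chosen after seeing the data. With 1 array left out the count was 1 to 4. At 14 days the main count was 0 of 6 among 120 genes. It was 1 with array weights (193 genes) and with the acinar covariate, in both Acaca, and 0 to 1 with 1 array left out. Genes in all were 77 under the replicate block, 69 and 58 with HFD arrays 1 to 4 and 5 to 8 alone, 61 with controls 10 to 18 alone, and 65 without the arrays of high acinar mean. At 21 days the 6 genes had 0 calls under each of these settings, and 903, 349 and 71 genes were called with HFD arrays 1 to 4, with 5 to 8 and with controls 10 to 18, against 126. The F test among HFD times called 1 gene, against 3 with array weights, 0 with only the groups compared, 0 under the replicate block, 0 with HFD arrays 1 to 4 or 5 to 8 alone and 0 without the arrays of high acinar mean, and 0 to 1 with 1 array left out. Fewer arrays give a fit less precision, yet at 21 days both subsets of HFD arrays called more genes than all 8. Why the counts differed between settings was not tested. No difference of the 6 genes that was called turned its sign. Among those not called, against controls Srebf1 turned with HFD arrays 5 to 8 alone at 7 days (-0.399) and 21 days (-0.032) and with controls 10 to 18 at 7 days (-0.0851), and Acss2 with HFD arrays 5 to 8 at 7 days (-0.0357). Between 14 and 7 days Acss2 turned with quantile normalization (0.0107) and HFD arrays 5 to 8 (0.0677), Fasn with HFD arrays 5 to 8 (0.131), and Srebf1 with HFD arrays 1 to 4 (-0.0522) and without arrays of high acinar mean (-0.00939). Between 21 and 7 days Srebf1 turned with HFD arrays 1 to 4 (-0.113), and Fasn and Acss2 with HFD arrays 5 to 8 (0.00613 and 0.0306). Between 21 and 14 days Srebf1 turned with Malat1 as a covariate (0.104) and without arrays of high acinar mean (0.101). With 1 array left out, differences that crossed 0 were Acss2 between 14 and 7 days (-0.0935 to 0.00168), Srebf1 between 21 and 7 days (-0.0285 to 0.290) and, between 21 and 14 days, Fasn (-0.260 to 0.00299) and Srebf1 (-0.173 to 0.101). Further, 15 of 15 correlations passed under quantile normalization, median centring and the mean of probe sets. Of the genes called at 7 days 82.9% were higher, 75.2% after quantile normalization and 90.4% after median centring. Correlations between arrays of like number ran from -0.37 to 0.52, with 22 of 48 above 0.1. These were 17 of 24 between HFD groups and 5 of 24 between HFD groups and controls. Only 13 of 96 arrays correlated best with their own number. So like numbers did not pair throughout, but they correlated more often between HFD groups than with controls. Under the block Acaca had 1.01 (adjusted p = 0.0493) at 7 days, and the call of Me1 was lost (0.88, adjusted p = 0.0553).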
